A study of Mus musculus with 5 samples.

Results

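Immediate early response genes are switched on within minutes of a growth factor, stress or depolarisation signal, without new protein synthesis, and most of their transcripts are short-lived. The 9 genes described here were chosen by name: Fos, Jun, Junb, Egr1, Ier2, Ier3, Atf3, Dusp1 and Klf6. Each was found through a single gene symbol in the platform annotation, and all 9 were present among the 18193 genes of the array. They have 14 probe sets between them, 5 for Klf6, 2 for Jun and 1 for each of the others. Where a gene has several, the brightest on average stands for it.

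The cells were derived from mouse embryonic stem cells, cultured on gelatin-coated plates and directed to a pancreatic fate. Treated cultures received 2 µM MPA from day 5 and were collected at day 6, after 1 day, or at day 8, after 3 days, and untreated cultures were collected at days 5, 6 and 8. The labels do not write MPA out, and it is called so here. Each of the 5 groups had 1 array, so there are no replicates, no value carries a spread between cultures, and what sets one array apart from another is given as a size, untested. The number of arrays limits the precision.

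Signals are linear MAS5 intensities per probe set. Each array had a 2% trimmed mean of 500, and a signal under 86.8, the median of all probe sets other than controls, was raised to that floor before log2 was taken. A comparison took in the genes that exceeded the floor on 1 or both of its arrays, here called measured. Where 1 of the arrays was floored, the fold can only be bounded from below and is written "at least". All 9 genes were measured in every comparison, and 7 lay above the floor on all 5 arrays. The exceptions were Fos in the untreated day 6 culture and Junb in the MPA day 8 culture. Among the markers of the labelled fate, the endoderm factor gene Foxa2 was above the floor on all 5 arrays. Pdx1, of the pancreatic progenitor factor, had signals of 90.4 with MPA and 78.6 without at day 8 and was under 5 on the other 3 arrays. For Gapdh, whose 3' probe set outshines its 5' one where RNA is degraded, the 3'/5' ratio was lowest at day 5, at 1.08, and highest with MPA at day 8, at 1.57. The same ratio of Actb ordered the arrays differently, from 2.08 at day 5 to 3.06 with MPA at day 6, with 2.71 with MPA at day 8.

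The signals these genes respond to run largely through the MAP kinases. ERK activates ternary complex factors that sit with serum response factor (SRF) on promoters such as those of Fos and Egr1, JNK phosphorylates the Jun protein, and CREB binds cyclic AMP response elements. Fos protein pairs with Jun or Junb as the AP-1 transcription factor, Egr1 encodes a zinc finger transcription factor, and Atf3 encodes a stress-induced member of the ATF/CREB family that ATF4 and p53 also induce. Klf6 encodes a Krüppel-like transcription factor. Dusp1 encodes a nuclear phosphatase that switches MAP kinases off again, Ier3 a regulator of survival and ERK signalling, and Ier2 a nuclear regulatory protein.

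Promoter sequences, from 250 bases before to 50 bases after the annotated start, were available from RefSeq (GRCm38.p6) for 7 of the 9 genes and not for Egr1 and Ier2. Printed here are 4 that share the core of the cyclic AMP response element, and that of Ier3, which had the largest MPA differences. Each reads 5′ to 3′ on the gene's strand, and capitals mark this core, TGACG, on either strand. In Dusp1 both strands' matches overlap in the full element TGACGTCA.
Fos promoter, chr12:85473640-85473939, plus strand: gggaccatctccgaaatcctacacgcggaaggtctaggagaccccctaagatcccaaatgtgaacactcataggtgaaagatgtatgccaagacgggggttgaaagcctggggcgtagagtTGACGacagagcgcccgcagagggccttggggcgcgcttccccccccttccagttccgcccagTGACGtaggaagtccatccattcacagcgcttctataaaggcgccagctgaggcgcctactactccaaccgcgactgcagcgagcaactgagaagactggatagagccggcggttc
Junb promoter, chr8:84978699-84978998, minus strand: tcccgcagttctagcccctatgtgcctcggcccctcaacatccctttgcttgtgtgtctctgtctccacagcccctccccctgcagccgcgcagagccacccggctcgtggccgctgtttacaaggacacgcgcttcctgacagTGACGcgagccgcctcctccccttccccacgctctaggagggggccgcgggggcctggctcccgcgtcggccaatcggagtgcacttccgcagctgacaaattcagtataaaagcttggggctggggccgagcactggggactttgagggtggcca
Atf3 promoter, chr1:191183284-191183583, minus strand: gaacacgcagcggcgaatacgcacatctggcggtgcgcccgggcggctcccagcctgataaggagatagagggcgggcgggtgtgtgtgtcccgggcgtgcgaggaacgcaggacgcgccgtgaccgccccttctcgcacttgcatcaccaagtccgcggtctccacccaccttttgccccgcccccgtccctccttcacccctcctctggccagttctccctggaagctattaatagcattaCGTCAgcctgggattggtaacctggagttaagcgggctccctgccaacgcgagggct
Dusp1 promoter, chr17:26508423-26508722, minus strand: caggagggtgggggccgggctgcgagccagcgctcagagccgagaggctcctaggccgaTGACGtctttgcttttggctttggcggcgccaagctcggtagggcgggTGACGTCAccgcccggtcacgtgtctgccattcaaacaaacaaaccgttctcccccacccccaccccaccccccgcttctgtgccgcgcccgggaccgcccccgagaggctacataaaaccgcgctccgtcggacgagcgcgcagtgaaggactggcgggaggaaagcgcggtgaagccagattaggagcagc
Ier3 promoter, chr17:35821463-35821762, plus strand: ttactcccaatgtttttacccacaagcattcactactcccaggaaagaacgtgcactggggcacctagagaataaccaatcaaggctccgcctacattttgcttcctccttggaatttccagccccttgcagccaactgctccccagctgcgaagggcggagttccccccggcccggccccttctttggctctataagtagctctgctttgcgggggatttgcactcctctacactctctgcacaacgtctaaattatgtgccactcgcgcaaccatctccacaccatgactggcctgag
The core was found in Fos, Junb, Atf3 and Dusp1, 4 of 7, against 20.8% of all 32851 promoters of that length. The full element TGACGTCA was found in Dusp1, 1 of 7, against 1.79% of all promoters. In Fos 1 copy of the core began 66 bases before the start and another 129 bases before it. The TATA box letters TATAAA were found in Fos and Junb, 2 of 7, against 13.6% of all promoters. They began 33 bases before the start of Fos. In Junb they lay at bases 1 to 6 from the annotated start, and not upstream of it. The GC box letters GGGCGG occurred in 6 of 7, all but Junb, against 35.7%, and the GC content of the 7 promoters had a median of 63%, against 52.7% over all promoters. The CArG box bound by SRF, the AP-1 site TGANTCA, the ETS site CCGGAAGT and the Egr site (GCGTGGGCG or GCGGGGGCG) were in 0 of the 7 windows, with both strands searched for every motif. Over all promoters the shares were 1.63%, 7.81%, 3.89% and 3.47%. Only these letters and 250 bases before the start were searched, so sites farther upstream or with other letters would be missed. The 0 of 7 thus does not show that these promoters lack such sites. A match of letters is a description and no measure of binding.

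The comparison of MPA with no MPA at day 6 asks how the genes differed after 1 day of exposure. Fos and Jun were more than 2-fold higher with MPA, Atf3 and Egr1 nearly so, and Ier3 was more than 5-fold lower. Of the 9, 2 were at least 2-fold higher, against 4.02% of the 12240 genes measured, and 1 was at least 2-fold lower, against 3.15%. Either way that makes 3 of 9, against 7.17%. In direction alone, 6 were higher and 3 lower, against 51.5% higher over all measured genes. Their median log2 difference was 0.22, against 0.02 over all measured genes, and the median size, whatever the sign, was 0.93, against 0.31. Fewer cells of a type and less RNA per cell cannot be told apart in these bulk samples.

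**Figure D1:**
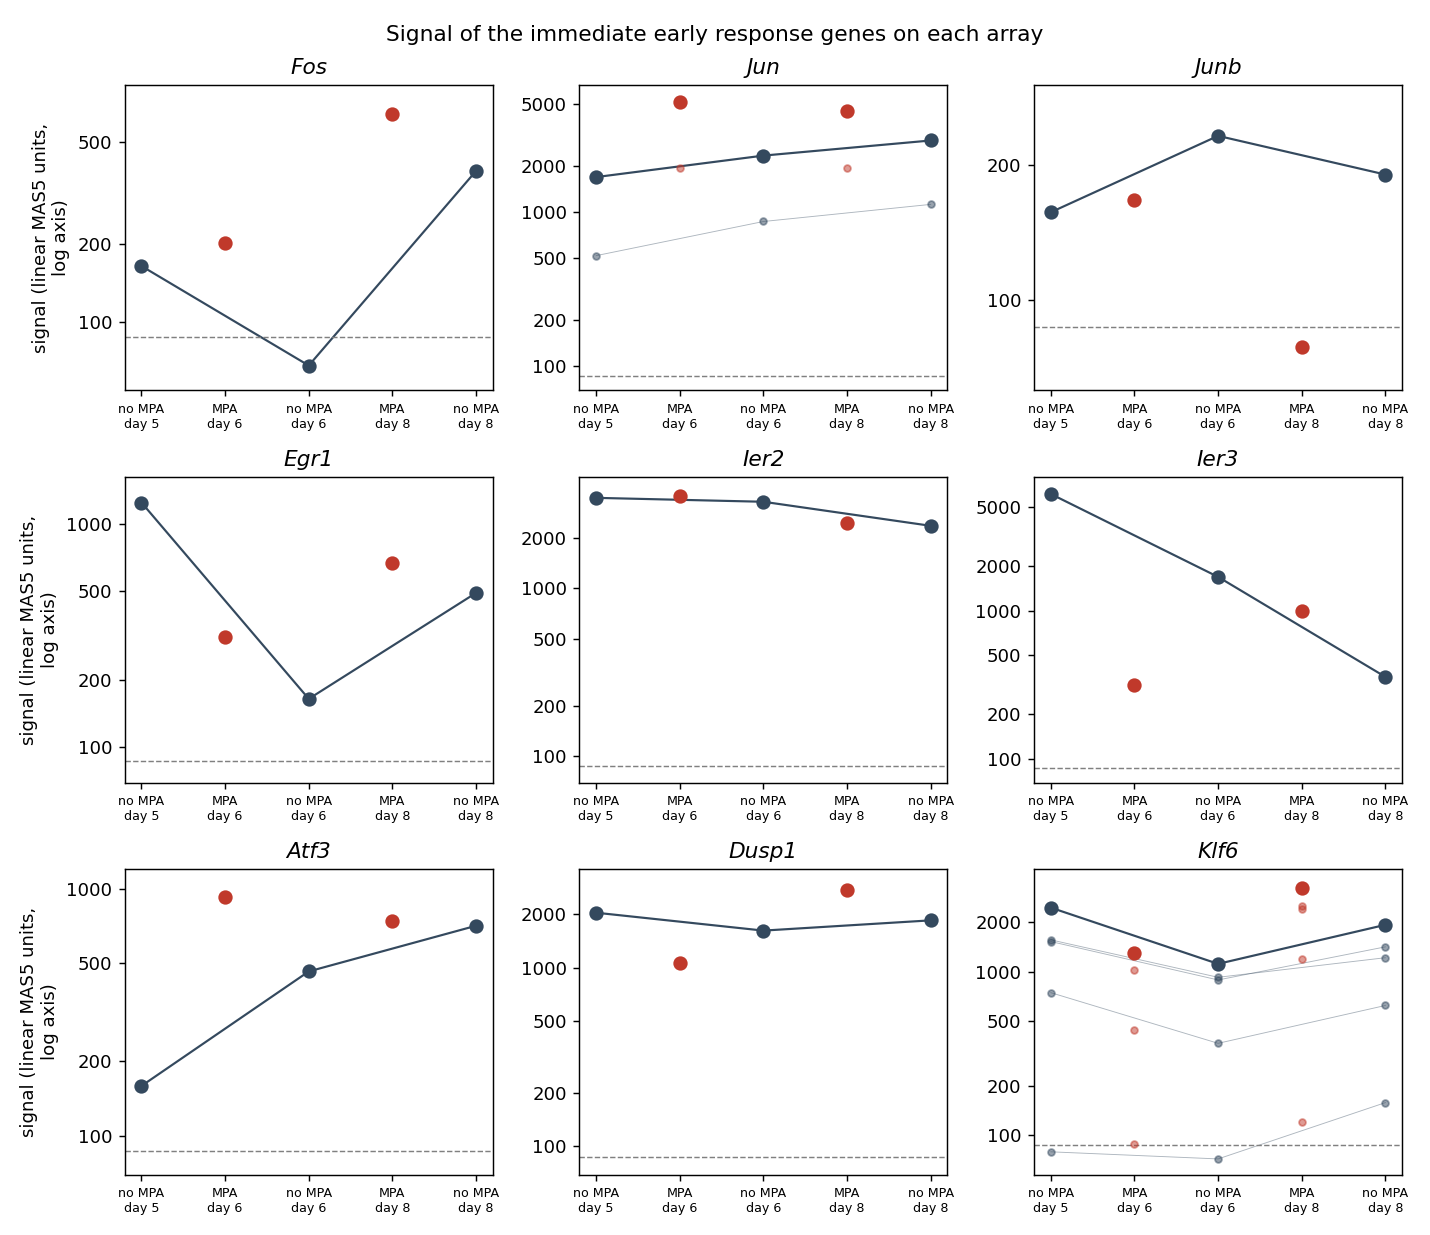
Signal of each gene on each of the 5 arrays (linear MAS5 units on a log axis whose range differs by panel), red with MPA and dark without. Large points are the probe set with the highest mean, small points further probe sets, lines join the untreated days and the dashed line is the floor of 86.8. Both MPA points of Jun lie above all 3 untreated points, and the untreated day 6 point is the lowest of Fos, Egr1 and Klf6.

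Fos had signals of 164 at day 5, of 201 with MPA and 67.4 without at day 6, and of 641 with MPA and 385 without at day 8. The untreated day 6 array was the lowest and the MPA day 8 array the highest. The MPA difference was at least 2.32-fold at day 6 and 1.66-fold at day 8, both higher with MPA. The untreated day 6 signal was under the floor. Raising the floor to the 65th percentile made the day 6 log2 difference 0.19 in place of 1.22.

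Jun had signals of 1683 at day 5, of 5129 with MPA and 2319.6 without at day 6, and of 4533 with MPA and 2907 without at day 8. Both MPA arrays were above all 3 untreated ones. Jun was 2.21-fold higher with MPA at day 6 and 1.56-fold higher at day 8. Its other probe set gave 2.21-fold and 1.72-fold, again higher at both days, from signals of 1914 with MPA and 867 without at day 6 and of 1921 with MPA and 1119 without at day 8. At day 6, 336 of the 12240 measured genes, 2.75%, were as far or farther above the untreated array as Jun.

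Junb went the other way from Fos and Jun. Its signals were 157 at day 5, 167 with MPA and 233 without at day 6, and 78.4 with MPA and 191 without at day 8. With MPA it was 1.39-fold lower at day 6. At day 8 it was lower by at least 2.20-fold, and the MPA array lay under the floor. Raising the floor to the 65th percentile made the day 8 log2 difference -0.11 in place of -1.14.

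Egr1 had signals of 1242 at day 5, of 312 with MPA and 164 without at day 6, and of 667 with MPA and 489.6 without at day 8. The day 5 array was the highest, and at both later days the MPA array was above the untreated one. The MPA difference was 1.90-fold at day 6 and 1.36-fold at day 8, both higher and both under 2-fold.

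Atf3 had signals of 159 at day 5, of 925 with MPA and 463 without at day 6, and of 741 with MPA and 709 without at day 8. Day 5 was the lowest and the MPA day 6 array the highest. It was 1.996-fold higher with MPA at day 6, just under the 2-fold limit, and 1.05-fold higher at day 8, so that the arrays of day 8 were nearly level.

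Klf6 had signals of 2455 at day 5, of 1293.5 with MPA and 1113 without at day 6, and of 3242 with MPA and 1928 without at day 8. The MPA day 8 array was the highest. It was 1.16-fold higher with MPA at day 6 and 1.68-fold higher at day 8. Of its 4 further probe sets, 3 were bright, and these stood above the untreated array 1.49-fold, 1.11-fold and 1.21-fold at day 6. Their day 8 values were 1.69-fold, 2.07-fold and 1.93-fold, again higher with MPA. The dimmest, with signals of 119.8 with MPA and 158 without at day 8, was 1.32-fold lower there.

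Ier3 had the largest MPA differences of the 9 at either day, and they had opposite signs. Its signals were 6141 at day 5, 315 with MPA and 1694 without at day 6, and 990.1 with MPA and 359 without at day 8. The MPA culture thus held the lowest signal at day 6 and the higher of the pair at day 8. Ier3 was 5.38-fold lower with MPA at day 6, a difference that 6 of 12240 measured genes, Ier3 among them, reached or passed in that direction. At day 8 it was 2.76-fold higher, which 128 of 12599 genes reached or passed. It has 1 probe set on the array, so no second one could be compared.

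Dusp1 also had opposite signs at the 2 days. Its signals were 2029 at day 5, 1063 with MPA and 1612 without at day 6, and 2732 with MPA and 1839 without at day 8. It was 1.52-fold lower with MPA at day 6 and 1.49-fold higher at day 8, both under 2-fold. The MPA cultures held both its lowest and its highest signal.

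Ier2 was nearly level. Its signals were 3473 at day 5, 3553 with MPA and 3291 without at day 6, and 2451 with MPA and 2365 without at day 8. The MPA differences were 1.08-fold and 1.04-fold, both higher with MPA. With median centring the sign at day 6 turned, to a log2 difference of -0.01.

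**Figure D2:**
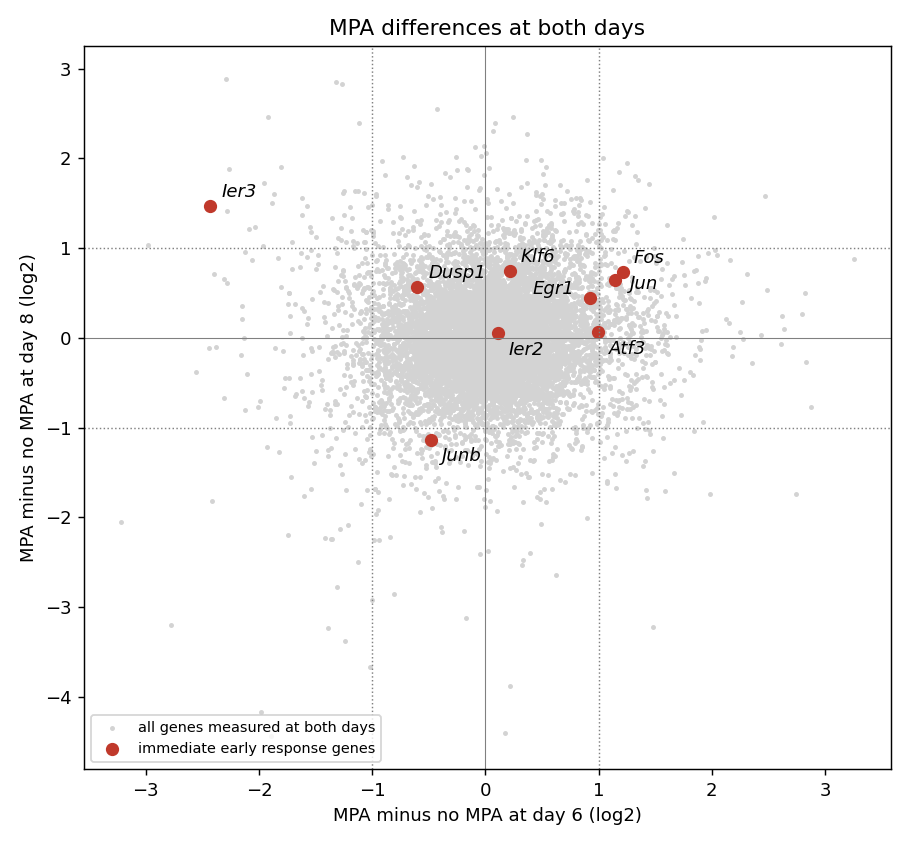
Log2 difference of MPA minus no MPA at day 6 (x axis) against that at day 8 (y axis), grey for the 11007 genes measured at both days and red for the 9 immediate early response genes, with dotted lines at 2-fold. Fos, Jun, Egr1 and Atf3 sit to the right of 0, Ier3 (at -2.43 and 1.46) and Dusp1 (at -0.60 and 0.57) in the upper left, and Junb below 0 at both days.

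At day 8, after 3 days of exposure, 8 of the 9 genes were higher with MPA and Junb was lower, against 48.1% higher over all 12599 measured genes. The median size of the differences, whatever their sign, was 0.64 on the log2 scale, against 0.30 over all measured genes. One gene, Ier3, was at least 2-fold higher, against 3.72% of all measured genes, and Junb was the 1 that was at least 2-fold lower, against 3.18%. Together they are 2 of 9, against 6.91%. The median log2 difference was 0.57, against -0.02 over all measured genes. At both days together, 6 of the 9 were higher with MPA at both, Junb was lower at both, and 2 had opposite signs. Over the 11007 genes measured at both days, 27.3% were higher at both and 46.9% had opposite signs.

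The test across all genes was a limma model of the 4 arrays from days 6 and 8 with terms for day and MPA. A gene's own error is how far its day 6 and day 8 MPA differences disagree, with 1 residual degree of freedom, and not the spread between cultures. The fit then moderates that error with those of all genes tested. The SEs and p-values rest on both. Of the 9 genes, 0 passed at a limma adjusted p under 0.05, where 1 of 11599 genes, 0.00862%, passed. At an unadjusted p under 0.05 the count was 2 of the 9, Jun and Fos, against 6.37% of all genes tested. Over the 11 alternatives this count ran from 0, without the filter on low signals, to 4, with the mean over probe sets. Fos was not in it with a floor at the 65th percentile, without a day term, with day as a straight line or without the filter, and Jun not without the filter. Jun had a mean log2 difference of 0.89 (SE 0.21, limma adjusted p 0.492, higher at both days), and over the alternatives its adjusted p ran from 0.438 to 1. Fos had one of 0.97 (SE 0.40, limma adjusted p 0.751, higher at both days), with a range of 0.714 to 1. For Ier3 the opposite differences gave a mean of -0.48 with an SE of 1.27 (limma adjusted p 0.981). A p that misses the threshold does not show that the genes were level.

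The untreated time course shows how the genes stood as differentiation went on without MPA. Egr1 and Ier3 were far lower after day 5, Atf3 was higher, and Fos and Klf6 were lowest at day 6. At day 6 against day 5, 3 of the 9 were at least 2-fold lower, against 4.40% of 12611 measured genes, and 1 was at least 2-fold higher, against 5.46%. The 4 together stand against 9.86%. Egr1 was 7.55-fold lower at day 6 than at day 5, Ier3 3.62-fold and Klf6 2.21-fold lower, and Atf3 was 2.91-fold higher. Fos was at least 1.89-fold lower. For Klf6 the 3 further bright probe sets gave 1.72-fold, 1.69-fold and 2.04-fold lower.

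At day 8 against day 6 without MPA, Fos was at least 4.44-fold and Egr1 2.98-fold higher. Klf6 was 1.73-fold higher, and Ier3 a further 4.72-fold lower. At this step 2 of the 9 were at least 2-fold higher, against 7.07% of 12824 genes, and 1 was lower, against 6.43%, or 3 of 9 against 13.5% either way. Over the whole span, day 8 against day 5, Atf3 was 4.46-fold and Fos 2.34-fold higher, and Ier3 was 17.1-fold and Egr1 2.54-fold lower. That is 2 of 9 at least 2-fold higher, against 9.61% of 12784 genes, and 2 lower, against 7.27%, or 4 of 9 against 16.9% either way. Dusp1, 1.10-fold lower, and Junb, 1.21-fold higher, differed little. These 3 comparisons share arrays, so their values are not independent of each other.

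**Figure D3:**
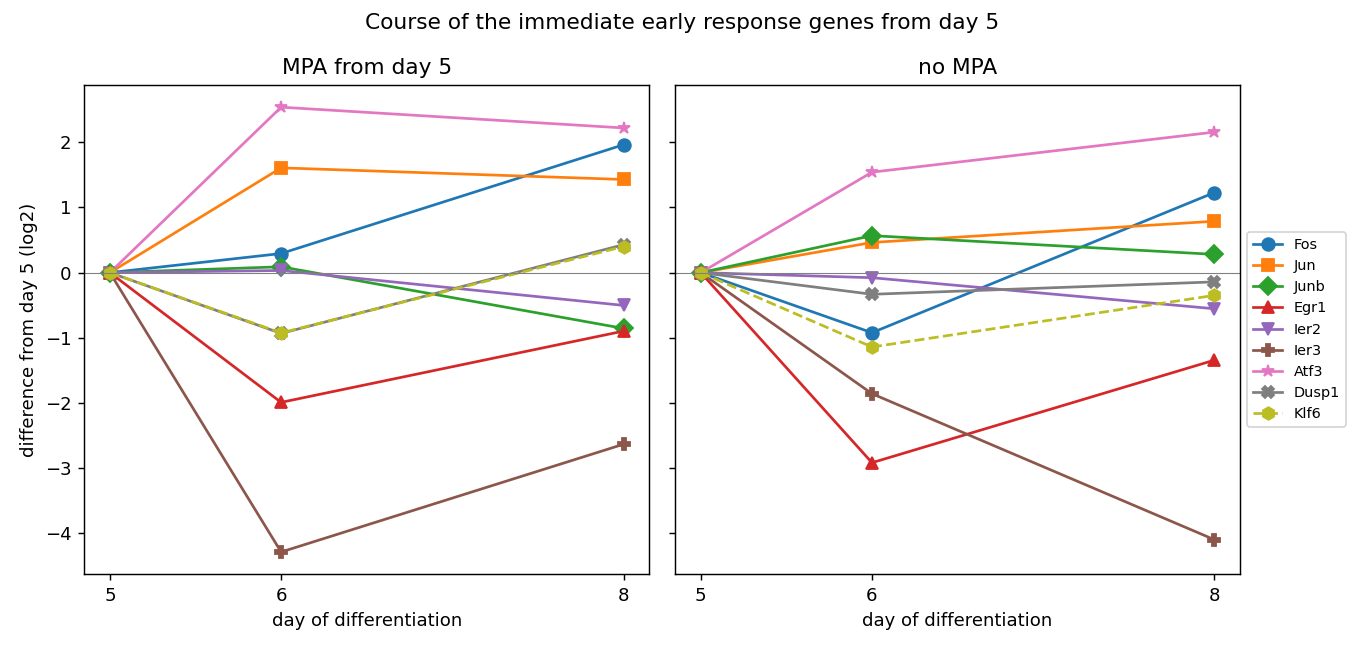
Log2 difference of each of the 9 genes from the day 5 array over days 5, 6 and 8, with MPA from day 5 in the left panel and without MPA in the right. Both panels start from the same day 5 array. Ier3 is 17.1-fold below day 5 in the untreated day 8 culture, and with MPA its lowest point is at day 6.

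Between the MPA cultures, day 8 against day 6, 5 of the 9 genes were at least 2-fold higher, against 7.64% of 12257 genes. None were lower by that much (0 of 9, against 7.64%), and the share of all genes either way was 15.3%. The 5 higher genes were Fos, 3.18-fold, Ier3, 3.15-fold, Dusp1, 2.57-fold, Klf6, 2.51-fold, and Egr1, 2.13-fold. Jun and Atf3 were 1.13-fold and 1.25-fold lower, and Junb was at least 1.93-fold lower. The count was 3 without probe sets of the kinds _s_at, _x_at and _a_at, which can match several transcripts, since the 1 probe set of Ier3 is of that kind and the brightest remaining one of Klf6 gave 1.81-fold.

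A list of 30 further immediate early genes, all on the array, was set beside the 9. At day 6, 25 were measured, 14 higher and 11 lower, and their median log2 difference was 0.33. By 2-fold or more, 2 were higher and 5 lower, against 4.02% and 3.15% of all measured genes. At day 8, 26 were measured, 20 higher and 6 lower, with a median of 0.51. There 5 were at least 2-fold higher and 1 lower, against 3.72% and 3.18% of all measured genes. Of the 23 measured at both days, 12 were higher at both, 3 lower at both and 8 of opposite signs. The medians over all measured genes were 0.02 and -0.02. These medians and shares also stand beside the MPA differences of the lists that follow.

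Klf4, of a Krüppel-like transcription factor, had signals of 258 with MPA and 144 without at day 6 and of 1956 with MPA and 672 without at day 8, 1.79-fold and 2.91-fold higher. Sgk1, of a serum-induced kinase, was at 1707 with MPA and 854 without at day 6 and at 1532 with MPA and 723.5 without at day 8. Its day 5 signal was 8960.4, above all 4 later arrays, as it was for Egr1 and Ier3. Ier5, a relative of Ier2, was 1.78-fold and 2.11-fold higher with MPA. Ier5l, of the same family, was 3.63-fold lower at day 6, with 279.97 with MPA and 1017 without, and 1.08-fold lower at day 8.

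**Figure D4:**
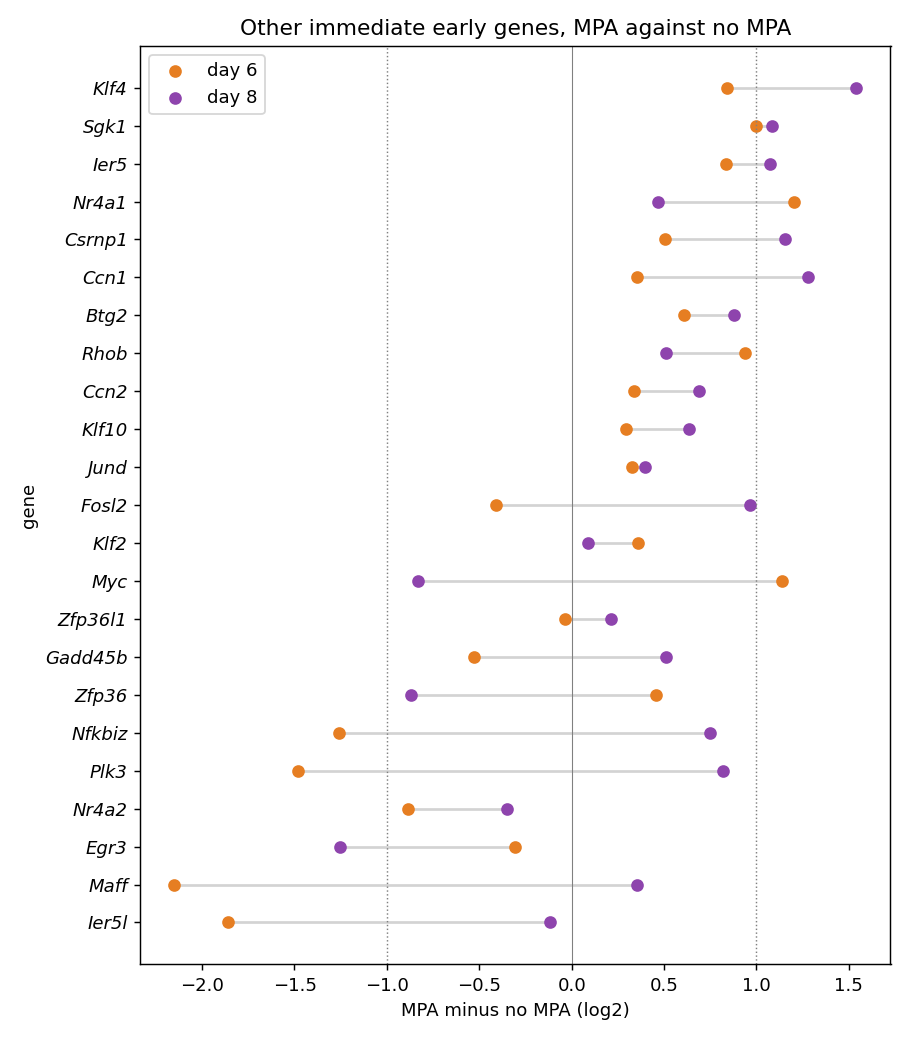
Log2 difference of MPA minus no MPA for the 23 further immediate early genes measured at both days, orange for day 6 and purple for day 8, with dotted lines at 2-fold. The 12 genes that were higher at both days include Klf4, Sgk1 and Ier5, and Ier5l was lower at both.

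Upstream of these genes, transcripts of the MAP kinases and their activators went both ways with MPA. At day 6 their log2 differences ran from -1.11 for Map2k6 to 0.58 for Map2k4. The median size over all measured genes at that day was 0.31. Of 12 measured, 4 were higher and 8 lower at day 6 (median -0.28), with 1 at least 2-fold lower, and 5 were higher and 7 lower at day 8 (median -0.01), with 0 at 2-fold. The gene of the p38 kinase activator Map2k6 was 2.17-fold lower at day 6. Srf itself had signals of 519 with MPA and 393 without at day 6 and of 1169 with MPA and 565.5 without at day 8, and its partner gene Elk4 was 1.73-fold and 1.53-fold higher. Crtc2, of a CREB coactivator, was lower with MPA, by at least 1.42-fold at day 6 and at least 1.89-fold at day 8. The list of SRF, its partners and CREB had 7 of 9 genes higher and 2 lower at day 6 and 4 higher and 5 lower at day 8. Its medians were 0.24 and -0.29, and the day 8 median turned to 0.11 with a floor at the 65th percentile.

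Cytoskeletal SRF target genes stood higher with MPA. Of 11 measured at day 6, 8 were higher and 3 lower, with a median of 0.25, and of 12 at day 8 all 12 were higher, with a median of 0.82 and 3 at least 2-fold. Myl9, of a myosin light chain, was 2.52-fold and 2.26-fold higher, with signals of 296 with MPA and 117 without at day 6 and of 3466 with MPA and 1531 without at day 8. Tagln, of transgelin, was 1.23-fold and 2.57-fold higher. In the untreated course all 12 were lower at day 6 than at day 5, with a median of -0.45. At that step 6 of the 9 immediate early response genes were lower and 3 higher. The summed signals of 6 mesenchymal and cardiac markers came to 1621 with MPA and 1576 without at day 6 and to 10301 with MPA and 10345 without at day 8. The largest part of each day 8 sum is Col3a1, of a fibrillar collagen, at 4884 with MPA and 5367 without. The list holds no smooth muscle marker. Myh7, of a cardiac myosin heavy chain, was higher with MPA as the SRF targets were. At day 6 it was at 159.9 with MPA and 13.6 without, the latter under the floor, or at least 1.84-fold higher. At day 8 it was at 1761 with MPA and 885 without. Tnnt2, of cardiac troponin T, was under the floor on all 5 arrays. The muscle actin genes Actc1 and Acta1, chosen after their values were seen, had log2 differences of -0.89 and -0.58 at day 6 and of 1.82 and 1.27 at day 8. The part of muscle cells in the SRF target differences was not tested.

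ERK feedback genes and targets had medians of 0.36 at day 6, with 9 of 10 higher, and of 0.02 at day 8, with 6 of 11 higher. Spry1, of a feedback inhibitor of ERK signalling, had signals of 731 with MPA and 607 without at day 6 and of 1627 with MPA and 659 without at day 8. Etv5, of an ETS factor that FGF signalling induces, had log2 differences of 0.94 and 0.58. Phlda1 was 1.49-fold and 1.81-fold higher. Ccnd1, of cyclin D1, went both ways, 1.45-fold higher at day 6 and 3.54-fold lower at day 8.

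By their medians, targets of the 2 stress pathways known to induce Atf3 stood on opposite sides. Of 15 measured p53 target genes 14 were higher with MPA at day 6 (median 0.93, 6 at least 2-fold) and 12 at day 8 (median 0.62, 3 at least 2-fold). Cdkn1a, which encodes p21, a brake on the cell cycle, was 2.19-fold and 2.28-fold higher, and Plk2 2.81-fold and 2.005-fold. Of 10 ATF4 target genes, 8 were lower at day 6 (median -0.86, 4 at least 2-fold). At day 8, 7 of the 10 were lower (median -0.32, 0 at least 2-fold lower and 1 at least 2-fold higher). Chac1 was 3.10-fold and 1.36-fold lower and Asns 2.08-fold and 1.57-fold lower. Of the 10, 5 were lower at both days and 5 had opposite signs. Ddit4 was 2.98-fold lower at day 6 and 2.77-fold higher at day 8, and Vldlr 4.35-fold lower and 1.93-fold higher. Sesn2 is on both lists, and another p53 target gene is also among the further immediate early genes. Both patterns of these lists were known when they were chosen, and they are no independent evidence about Atf3.

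**Figure D5:**
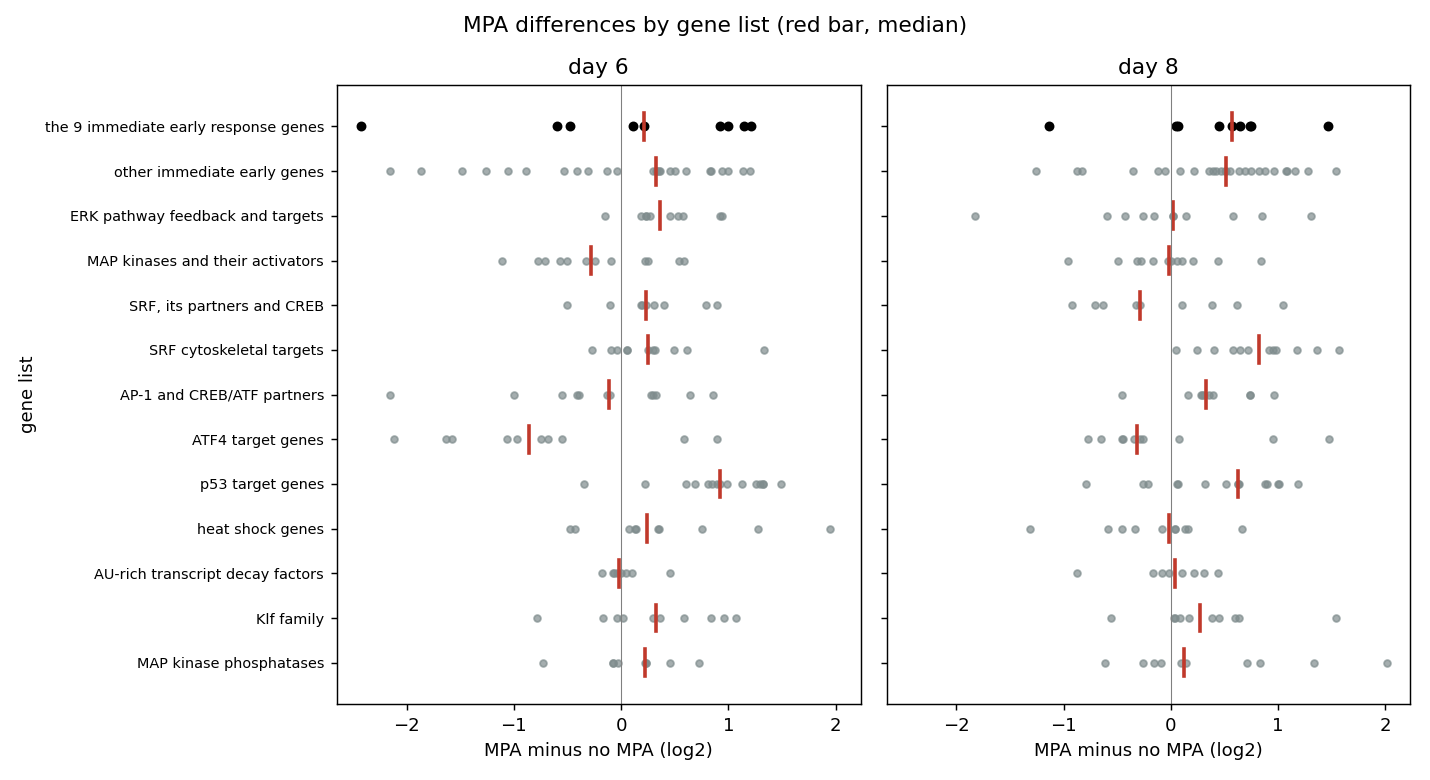
Log2 differences of MPA minus no MPA at day 6 (left) and day 8 (right), a point for each measured gene of 12 lists (grey) and for the 9 immediate early response genes (black, top row), with the median as a red bar. The p53 target list has its median at 0.93 and 0.62, the cytoskeletal SRF targets at 0.25 and 0.82, and the 9 genes at 0.22 and 0.57.

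Among cell type markers, most of those of neural cells were lower with MPA. The summed signal of 6 neural markers was 606.5 with MPA and 1679.6 without at day 6. At day 8 it was 1780.04 with MPA and 9169.8 without. At each day 4 of the 6 were at least 2-fold lower with MPA. Only 5 were measured at day 6, and there Map2 was at least 1.34-fold higher. At day 8 Tubb3 was 1.18-fold and Map2 1.60-fold lower. Zic1 had the largest signal in the untreated day 8 sum, at 4188, against 193 with MPA. The 10 definitive endoderm and pancreatic markers summed to 11332 with MPA and 5776 without at day 6 and to 8796 with MPA and 5032 without at day 8. The sums rest on a few genes, which were not the same at both days. Sox17, of an early endoderm factor, had 8178 with MPA and 3669.9 without at day 6 and 485 with MPA and 1550.3 without at day 8. By 2-fold or more, 2 of the 10 were higher and 2 lower with MPA at day 8. The higher ones were Gcg, of glucagon, at 2572 with MPA and 271 without, and Neurog3, of an endocrine progenitor factor, at 1295 with MPA and 193 without. Cxcr4, which marks early endoderm, was lower beside Sox17, at 70.7 with MPA and 457 without. The 6 endothelial and blood markers summed to between 236 and 467 on every array. The 6 pluripotency markers summed to 33020.2 at day 5 and to between 2616 and 5134 on the later arrays, beside the lower Egr1 and Ier3 signals of those arrays. At day 8 most of each sum is Sox2, at 2396 with MPA and 4784 without. Pou5f1 was then at 56.4 with MPA and 96.0 without, and Nanog was under the floor on both arrays. The part of these cell types in the differences of the 9 genes was not tested.

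The genes did not share one pattern across the 5 arrays. The highest signal fell on the MPA day 8 array for Fos, Dusp1 and Klf6, on the MPA day 6 array for Jun, Ier2 and Atf3, on day 5 for Egr1 and Ier3 and on the untreated day 6 array for Junb. Without replicates no pair of neighbours in these orders can be said to differ. Likeness was measured as the root mean square distance of centred log2 signals over the 5 arrays, among 3639 other genes that were above the floor on all arrays and spanned at least 2-fold. Of the pairs among the 9, Dusp1 and Klf6 were closest, at 0.31. Jun and Atf3 were each other's nearest, at 0.46. The nearest gene to Egr1 was Spry2, at 0.29, with signals of 5521 at day 5, of 1510.2 with MPA and 794 without at day 6, and of 1903 with MPA and 1876 without at day 8. For Ier3 it was Slc7a3, of a cationic amino acid transporter, at 0.51, for Jun Suox at 0.09, for Junb Ddb2 at 0.06 and for Atf3 Ccdc28a at 0.06. For Fos it was Tmem108 at 0.16, for Dusp1 Lpar2 at 0.07 and for Klf6 Gpc4 at 0.13. The median profile of the 7 genes above the floor everywhere lay closest to Rbfox2, Rwdd2a, 2310022B05Rik, Tmem245 and Phc3, at 0.04 to 0.08. With 5 points such distances describe these arrays only.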

How the data were processed

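Per the labels' protocols, biotinylated cRNA from 100 ng of total RNA was hybridised to Affymetrix mouse arrays, 1 per sample. The authors deposited linear signal intensities per probe set, made with MAS5 per the submitters' processing notes. Its version and settings were not given in the sources used here. Of 45101 probe sets, 64 were controls, 34945 had 1 gene symbol in the platform annotation, 932 had several and 9160 none, and the last 2 kinds were left out. Through gene identifiers 34741 matched RefSeq (GRCm38.p6, for names), and 0 symbols changed. Groups came from the labels.

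Signals were floored at the 50th percentile and taken to log2, and differences of 2-fold or more were counted. The limma fit (limma 3.58.1, R 4.3.3, lmFit, eBayes with trend and robust, Benjamini-Hochberg) took genes that exceeded the floor on 2 or more of the 4 arrays and was tested on simulated data. Other steps used Python 3.11.15, numpy 2.4.6, pandas 2.3.3 and scipy 1.17.1.

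The 9 genes and 12 gene lists, of whose 147 genes 138 were on the array, were chosen with earlier results of these data known. Beside the 9, the text could name from each list up to 4 genes, by size of mean MPA difference, up to 2 by untreated day 8 against day 5, and the nearest genes by profile. Alternatives were other scalings, floors and probe set rules, and for limma also other terms, variance settings and filters.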

Additional observations from a re-analysis of the deposited data

Results flagged for a closer look

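Ier3 had MPA differences of opposite signs, a log2 of -2.43 at day 6 and 1.46 at day 8, so that the day 8 difference minus the day 6 difference was 3.89. Of the 11007 genes measured at both days, 7 were as far apart or farther in that direction, and 49, 0.445%, were 2-fold lower at day 6 and 2-fold higher at day 8. The untreated signal of Ier3 was itself 4.72-fold lower at day 8 than at day 6. Dusp1 had differences of -0.60 at day 6 and 0.57 at day 8, which are 1.17 apart, and 529 of the 11007 genes were as far apart or farther. With 1 array per group neither difference between the days was tested.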

How the results depend on the processing

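Of 370 values of the 9 genes recomputed over 7 alternatives, 367 stayed within 1.5-fold and 0 of the 2-fold differences turned sign. Of 21 differences of 2-fold or more, 15 kept that size under every alternative run. The 65th percentile as floor and log2(signal + floor) each gave 1 gene 2-fold higher at day 6, in place of 2, and 0 lower at day 8, in place of 1. The second gave 1 gene higher for day 8 against day 5 in the controls, in place of 2. Leaving out _s_at, _x_at and _a_at probe sets removes Ier3, and then 0 were lower at day 6, 0 higher at day 8, 1 lower at the first untreated step, 0 at the second and 1 over both. For MPA at day 8 against day 6 the 8 genes left gave 3 higher and a median of 0.34, in place of 5 and 1.09. Quantile normalization and a floor at the 25th percentile each gave 1 lower there, in place of 0. Over the alternatives that keep all 9 genes the median MPA difference was 0.10 to 0.25 at day 6 and 0.55 to 0.58 at day 8. Over the 8 genes left without Ier3 it was 0.75 and 0.51. Lowering the floor to the 25th percentile put 37 list genes 2-fold apart at day 6 and 33 at day 8, in place of 22 and 19, and 2264 genes of the whole array were 2-fold higher at day 6, in place of 492. The limma fit called 0 genes in place of 1 with quantile normalization, the mean over probe sets, no day term, day as a straight line, eBayes without trend and robust, or no filter. With day as a straight line the MPA term of Egr1 was -0.00676 in place of 0.69. The cause of these shifts was not tested beyond what the alternatives change. No paired analysis by replicate number was possible because each group has 1 array. The limma fit sets MPA against no MPA within each day, through its day term. Signals near the floor, those of Fos and Junb, limit what can be said of both. Egr1 without MPA at day 6, at 164, and Atf3 at day 5, at 159, were about as low as Fos at day 5, at 164. The day 6 MPA difference of Egr1 ran from 0.67 to 0.93 over the settings.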

Other observations

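Some lists were not described above, and they are not all separate from those that were. Several Klf genes, AP-1 partners and decay factors are also among the further immediate early genes. Several of the phosphatases are also ERK feedback genes. Their counts thus repeat some genes. Of 10 heat shock genes 8 were higher with MPA at day 6 (median 0.24) and 5 at day 8 (median -0.02). Hspb1, of a small heat shock protein, was higher with MPA, 3.86-fold at day 6 and 1.59-fold at day 8, with signals of 6761 with MPA and 1752 without at day 6. Hspa1b, the inducible Hsp70 gene, was at 921 with MPA and 379 without at day 6 and at 993 with MPA and 1486 without at day 8. Its near-identical copy Hspa1a can share its probes, yet it was lower with MPA at both days. Hspa1a had 97.3 with MPA and 135.5 without at day 6, and 202 with MPA and 503 without at day 8.

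Of 10 further Klf genes, 7 were higher with MPA at day 6 (median 0.33) and 9 at day 8 (median 0.27), among them Klf5, 2.10-fold and 1.51-fold higher, and Klf3, with log2 differences of 0.96 and 0.38. Of the other MAP kinase phosphatase genes, 5 of 9 were higher at day 6 (median 0.22) and 6 of 10 at day 8 (median 0.12). Dusp3 was 1.17-fold and 2.52-fold higher with MPA. The AP-1 and CREB/ATF partner genes had medians of -0.12 at day 6, with 5 of 12 higher, and of 0.33 at day 8, with 9 of 10 higher. The day 6 median ran from -0.41 to 0.27 over the alternatives. Maff, of a small Maf protein, was at least 4.44-fold lower with MPA at day 6 and 1.28-fold higher at day 8, the same order of signs as Ier3. The decay factors of AU-rich transcripts, which clear many immediate early mRNAs, had medians of -0.02 and 0.04 over 8 genes, and 0 of them were 2-fold apart at either day.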
